A study of Homo sapiens with 12 samples.

Results

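The genes described here are long non-coding RNAs, 10 of the 60675 annotated genes in each count file, chosen by gene symbol, with earlier results of these data known. They fall into 7 RNAs known from prostate cancer (PCA3, PCGEM1, PCAT1, PCAT14, ARLNC1, SCHLAP1 and DRAIC) and 3 abundant RNAs found in most cell types (NEAT1, MALAT1 and GAS5). RNA was sequenced from 2 human prostate cancer cell lines, the androgen-dependent line LNCaP and its castrate-resistant derivative LNCaP:C4-2, called C4-2 below. The cells behind all 12 libraries were grown for 72 h with R1881, a synthetic androgen, at 1 nM. The C4-2 groups were R1881 alone, R1881 with namoline (50 µM, an inhibitor of the histone demethylase KDM1A), R1881 with TCE-5002 (an inhibitor of KDM7A), and R1881 with both inhibitors. The LNCaP groups were R1881 alone and R1881 with both inhibitors. There were 2 libraries, described as biological replicates, in each of the 6 groups. TCE-5002 is at 100 µM in the series text and at a lower concentration in the methods of the study, and which one was used for these libraries is not settled. A label field describes gene silencing with siRNA, which does not match these groups, so groups were taken from the sample titles.

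Long non-coding RNAs are transcripts that act without being translated into a long protein, as scaffolds, decoys or guides for proteins, or through the act of their own transcription. Many that mark prostate tissue are made under the control of the androgen receptor and of the pioneer factor FOXA1, and several are far more abundant in tumours than in normal prostate. NEAT1 builds nuclear bodies called paraspeckles, MALAT1 sits in the nuclear speckles that store splicing factors, and GAS5 is a host gene whose introns carry small nucleolar RNAs (snoRNAs). The question put to each member was whether its level differed between C4-2 cells given either inhibitor or both and cells given R1881 alone, whether the inhibitors acted additively, and whether the effect of both differed between the lines.

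Total counts ran from 14791602 to 20690819 fragments per library, and replicate libraries correlated at r = 0.987 to 0.996 over genes on the log2 scale. The C4-2 TCE-5002 pair had the lowest r. Its mean chi-square per gene between replicates was 27.9, against 3.61 to 9.76 in the other groups. The deviation of its replicate 1 correlated with the GC content of genes at -0.494 (Spearman), against -0.290 to 0.340 in the other groups. A single library stood against its label: the count column of LNCaP with both inhibitors, replicate 1, is headed as namoline alone, although its title names both. Its log2 expression correlated at 0.994 with replicate 2 of that group and at 0.957 and 0.961 with the LNCaP libraries given R1881 alone, and the effect of both inhibitors in the libraries labelled LNCaP is given with and without it. The libraries labelled LNCaP also differed from C4-2 in the defining markers of the line. The 10 luminal prostate markers summed to 922 to 1035 CPM (counts scaled to a common library size) in LNCaP with R1881 alone and to 437 to 562 with both inhibitors, against 2487 to 6925 in C4-2. The 10 mesenchymal markers summed to 771 to 947 CPM in the libraries labelled LNCaP and to 16.7 to 45.7 in C4-2. Values of the line comparison are therefore given for "the libraries labelled LNCaP".

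The sequences that bear on how these RNAs were measured are shown first. The libraries were made by capture of poly(A) RNA. MALAT1 and the long form of NEAT1 end in their mature form at a tract of adenines written in the genome. How well RNAs with such an end were captured was not tested. The 3′ parts of MALAT1-202 (GRCh38 chr11:65506007-65506126, plus strand) and NEAT1-202 (GRCh38 chr11:65445431-65445540, plus strand) from GENCODE 29 are printed 5′ to 3′ with the adenine tract and the bases after it in capitals.
MALAT1-202: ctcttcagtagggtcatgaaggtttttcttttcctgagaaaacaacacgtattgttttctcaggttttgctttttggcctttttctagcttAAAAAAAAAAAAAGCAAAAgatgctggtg
NEAT1-202: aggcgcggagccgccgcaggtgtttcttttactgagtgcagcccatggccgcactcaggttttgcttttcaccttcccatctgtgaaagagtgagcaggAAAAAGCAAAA
The capitals hold a run of 13 adenines in MALAT1-202 and of 5 in NEAT1-202, and 11 bases are common to both tracts. NEAT1-202 is 22743 bases long and its shorter forms share its first part, so a count for the gene does not separate the short form from the long form that builds paraspeckles.

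Transcripts that begin with a cytosine and a run of pyrimidines (a 5′ terminal oligopyrimidine tract) are known for translation control by mTOR, and many snoRNA host genes begin this way. The first 30 bases of GAS5 (transcript GAS5-219, whose first exon is 30 bases long, GRCh38 chr1:173867960-173867989, minus strand) from GENCODE 29 are set beside those of 5 host genes, chosen after their values were seen, from RefSeq (GRCh38.p14). Capitals mark the pyrimidine tract where it holds at least 4 pyrimidines after the cytosine.
GAS5-219: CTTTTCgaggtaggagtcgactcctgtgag
ZFAS1: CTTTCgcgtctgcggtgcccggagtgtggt
SNHG5: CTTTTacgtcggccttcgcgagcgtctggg
SNHG32: CTTTTTgcgaagtgggctcgtgggttggca
SNHG8: cacattcgggaagcgtcgggattaggtgaa
EPB41L4A-AS1: tgtcgggtcccaaaatacgtggtctaaagt
The tract opened 5 of the 13 host genes found in the RefSeq table, against 4.07% of the 35116 RefSeq starts. It opened 6 of the 29 GENCODE 29 transcripts of GAS5, against 2.41% of all GENCODE 29 transcripts. GAS5-219 is among those 6 and starts inside the GAS5 gene as counted. The RefSeq start of GAS5 is a different one (chr1:173869045) and is not shown.

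Promoter sequence, 250 bases before and 50 after the transcript start, was found in RefSeq for 5 of the 10 members (PCA3, PCGEM1, DRAIC, MALAT1 and GAS5, 7 entries). The motifs searched, 3 in all, were matched on both strands and do not overlap each other: AGAACA, one arm of the androgen receptor element, TGTTTAC, bound by forkhead factors, and CACGTG, an E-box. AGAACA matched in PCGEM1 and in 1 of the MALAT1 entries, against 14.8% of all 35116 promoters. TGTTTAC, found in 3.42% of all promoters, and CACGTG, found in 7.26%, matched in none of the 7. DRAIC, the member that fell most under both inhibitors, is shown with the 250 bases upstream of KLK3 (prostate-specific antigen), a textbook androgen target. Capitals mark the longest run of bases that the 2 share.
DRAIC (GRCh38.p14 chr15:69561470-69561769, plus strand): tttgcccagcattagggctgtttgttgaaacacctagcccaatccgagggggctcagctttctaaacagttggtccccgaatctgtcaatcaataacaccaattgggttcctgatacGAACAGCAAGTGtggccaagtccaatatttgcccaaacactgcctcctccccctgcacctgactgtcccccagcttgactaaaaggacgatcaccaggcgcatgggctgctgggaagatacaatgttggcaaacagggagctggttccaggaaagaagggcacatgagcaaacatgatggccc
KLK3 (GRCh38.p14 chr19:50854665-50854914, plus strand): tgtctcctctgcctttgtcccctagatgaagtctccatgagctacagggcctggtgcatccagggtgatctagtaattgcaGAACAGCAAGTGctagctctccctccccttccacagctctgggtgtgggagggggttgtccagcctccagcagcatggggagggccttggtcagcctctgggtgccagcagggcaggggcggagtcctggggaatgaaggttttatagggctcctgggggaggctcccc
The RefSeq start used for DRAIC lies 98694 bases inside the DRAIC gene as counted, so the window is not the 5′ end of that gene. The shared run is 12 bases long and begins 133 bases before this DRAIC start and 169 bases before the KLK3 start. It occurs in 7 of the 35116 promoters, DRAIC and KLK3 among them. Because it was picked as the longest run these 2 share, that share is not a test. In KLK3 it overlaps an AGAACA match, and the DRAIC window holds none. The run was noticed after the sequences had been read and is a description of these letters.

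The 10 members together took 0.188 to 0.724% of all counts, and MALAT1, NEAT1 and GAS5 made up 99.2 to 99.9% of that. Levels between genes are compared per length of exon. In C4-2 with R1881 alone, MALAT1 stood highest at 384 ± 52.9 CPM per kb (mean ± SD, n = 2, as for all means below), ahead of GAS5 at 109.96 ± 12.5 and NEAT1 at 30.9 ± 1.06. DRAIC was the most abundant of the prostate cancer RNAs at 3.63 ± 0.370 CPM per kb. ARLNC1 (1.19 ± 0.229) and PCAT1 (0.848 ± 0.0880) followed, then SCHLAP1 (0.532 ± 0.0150) and PCA3 (0.421 ± 0.0377). The libraries of neighbours in this order did not overlap. PCGEM1 and PCAT14 were near or at 0. In the libraries labelled LNCaP the order differed: GAS5 led at 247 ± 10.9 CPM per kb with R1881 alone, MALAT1 followed at 107 ± 16.9, and ARLNC1 (0.363 ± 0.00576) and DRAIC (0.294 ± 0.0970) overlapped.

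**Figure D1:**
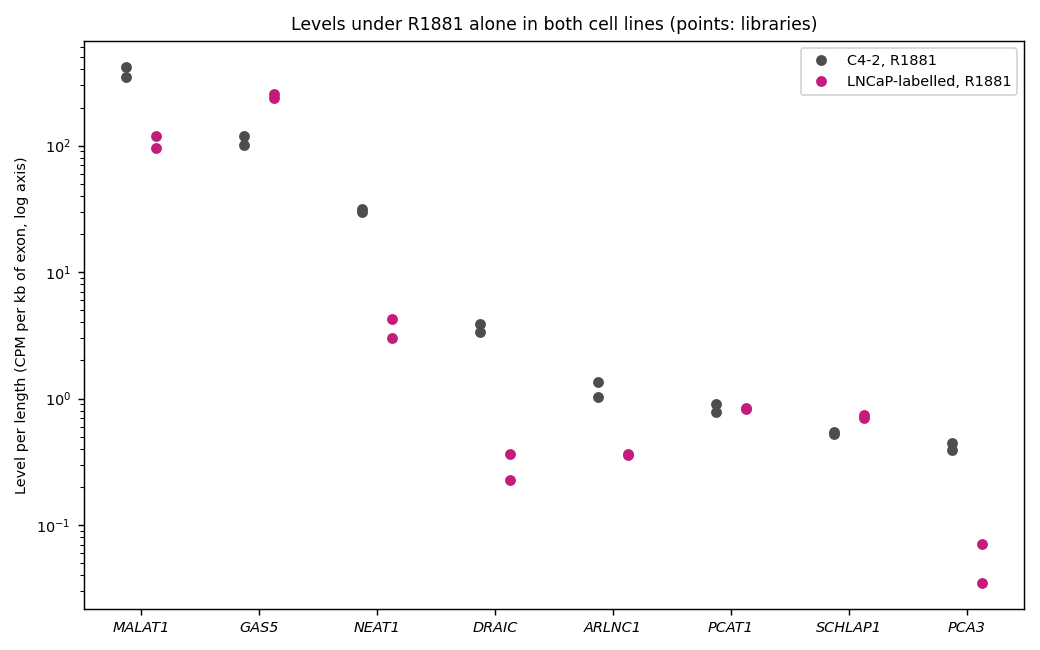
Level per length (CPM per kb of exon, log axis) of 8 members under R1881 alone, with 1 point per library, 2 in C4-2 (grey) and 2 in the libraries labelled LNCaP (pink). MALAT1 and GAS5 stand at or above 95 CPM per kb in all 4 libraries, and the gap between the lines is widest for DRAIC, NEAT1 and PCA3.

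Differences were tested with edgeR's quasi-likelihood test across all genes that passed a filter on low counts, with Benjamini-Hochberg adjustment over all of them. A gene was called where its adjusted p was under 0.05 and its change at least 2-fold, and "rose" and "fell" are kept for calls. In the C4-2 fit 8 of the 10 members passed the filter, all but PCGEM1 and PCAT14. With namoline, 1 of the 8 was called (PCAT1, higher), where 12.1% of all 17702 genes were. With TCE-5002, 1 was called (DRAIC, lower), against 11.8% of all genes. With both inhibitors, 2 were called (PCAT1 and DRAIC, both lower), against 21.7% in either direction and 12.8% lower. The median log2 fold change of the 8 was 0.05 with namoline, -0.35 with TCE-5002 and -0.34 under both, where that of all genes tested was -0.0043, -0.00014 and -0.034. The 3 comparisons share the same R1881 libraries. The namoline count ran from 0 to 3 of the members when single libraries were left out, with 0 without C4-2 namoline replicate 2, 2 without C4-2 R1881 replicate 2 and 3 without C4-2 namoline replicate 1.

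**Figure D2:**
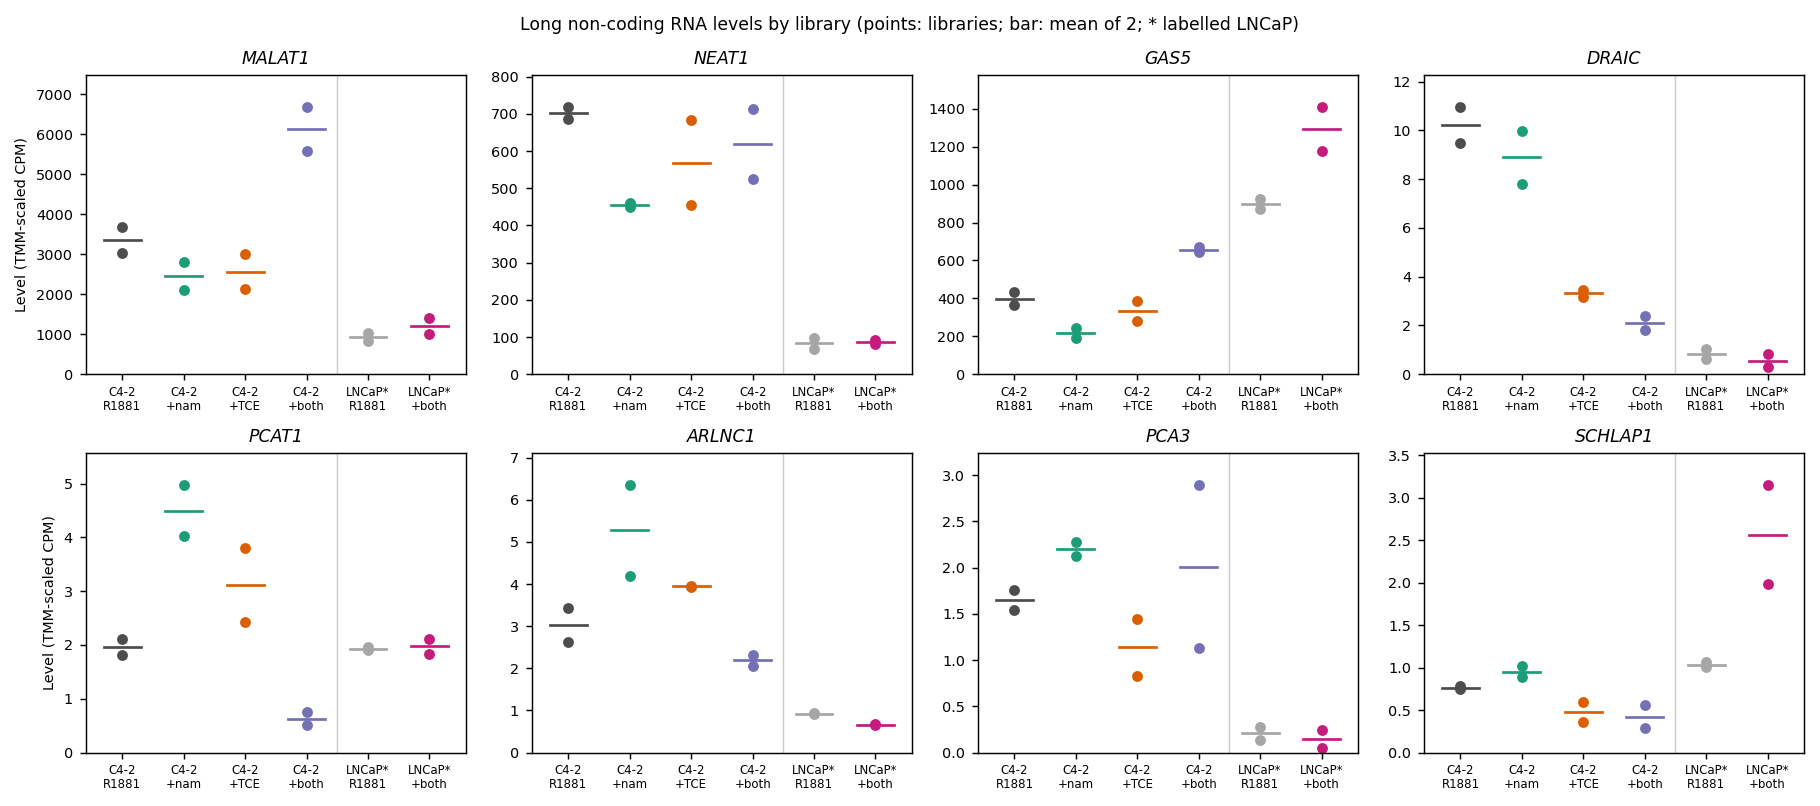
TMM-scaled CPM of the 8 tested members in each library (points; bars, mean of 2; each vertical axis starts at 0), for the 4 C4-2 groups and the 2 groups labelled LNCaP. DRAIC is low in both C4-2 groups given TCE-5002, and GAS5 and MALAT1 are highest in C4-2 when both inhibitors were given together.

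DRAIC is a long non-coding RNA that restrains invasion and NF-kappaB signalling, and its loss has been linked to progression of prostate cancer (GRCh38 chr15:69463026-69571440, plus strand). It stood at 9.50 and 11.0 CPM in C4-2 with R1881 alone and at 10.00 and 7.79 with namoline. It stood at 3.47 and 3.16 CPM with TCE-5002 and at 2.38 and 1.81 with both inhibitors. The 4 libraries given TCE-5002 were all below the 4 that were not, and the namoline libraries overlapped those given R1881 alone. DRAIC fell by 1.62 ± 0.214 on the log2 scale with TCE-5002 (SE, edgeR adjusted p = 5.99e-05) and by 2.30 ± 0.232 with both (edgeR adjusted p = 2.35e-06). The namoline value was a log2 fold change of -0.21 ± 0.197 (edgeR adjusted p = 0.434). These falls were also called in all alternative fits and when single libraries were left out, with log2 fold changes of -1.71 to -1.52 and -2.51 to -2.10. Compared directly, DRAIC was higher with namoline than with TCE-5002 by a log2 fold change of 1.41 ± 0.217 (edgeR adjusted p = 6.17e-04), the single call among the 8 members in that comparison, where 4.95% of all genes were called. That comparison gave 2 calls among the members without C4-2 TCE-5002 replicate 2.

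PCAT1 is a prostate cancer RNA from the gene-poor region upstream of MYC (GRCh38 chr8:126847055-127021014, plus strand) that has been linked to reduced BRCA2. Its level was 2.11 and 1.82 CPM in C4-2 with R1881 alone and 4.02 and 4.97 CPM with namoline. With TCE-5002 it was 2.43 and 3.80 CPM, and with both inhibitors 0.511 and 0.751 CPM. Each inhibitor alone gave libraries above both R1881 libraries, while the libraries given both lay below every other C4-2 library. PCAT1 rose with namoline by a log2 fold change of 1.17 ± 0.292 (edgeR adjusted p = 0.00637), and the value with TCE-5002 was 0.65 ± 0.299 (edgeR adjusted p = 0.101). It fell by 1.67 ± 0.388 on the log2 scale with both inhibitors (edgeR adjusted p = 0.00248). The rise with namoline lost its call without C4-2 namoline replicate 2 (log2 fold change 1.00, edgeR adjusted p = 0.0698). PCAT1 was counted from 9 to 83 fragments per library.

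The interaction asks whether the effect of both inhibitors differs from the sum of their single effects on the log2 scale. Of the 8 members, 4 were called, where 35.3% of all genes were: PCAT1 and ARLNC1 below the sum, MALAT1 and GAS5 above it. For PCAT1 the single effects summed to 1.82 and the effect of both was -1.67, an interaction of -3.50 ± 0.469 (edgeR adjusted p = 2.04e-05). For ARLNC1 the sum was 1.19 and the effect of both -0.47, an interaction of -1.67 ± 0.374 (edgeR adjusted p = 0.00170). DRAIC, with a sum of -1.83 and an effect of both of -2.30, gave an interaction of -0.46 ± 0.322 that was not called (edgeR adjusted p = 0.239). These interactions used the same 8 libraries as the comparisons above, and the 4 calls held when each of the 8 libraries was left out in turn. NEAT1 joined them without C4-2 TCE-5002 replicate 2, at 1.04.

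**Figure D3:**
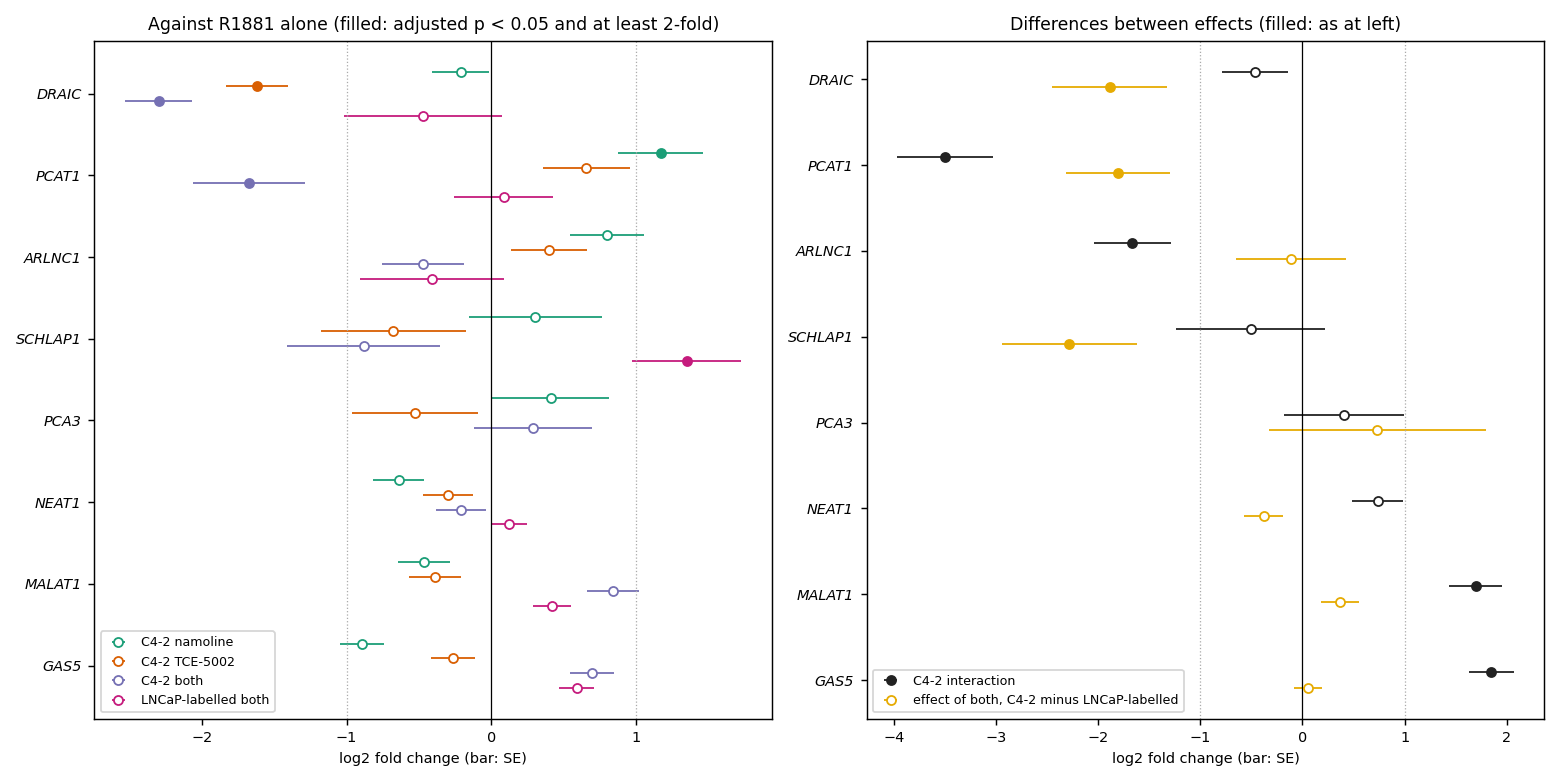
Left, log2 fold change against R1881 alone (points; bars, SE) for 8 members in C4-2 with namoline, TCE-5002 or both, and in the libraries labelled LNCaP with both; filled points mark calls and dotted lines a 2-fold change. Right, the interaction of the inhibitors in C4-2 (black) and the effect of both in C4-2 minus that in the libraries labelled LNCaP (yellow); PCAT1 has the lowest interaction at -3.50 and GAS5 the highest at 1.85.

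ARLNC1 is made under androgen receptor control and is known to stabilise the receptor's own transcript (GRCh38 chr16:80828735-80892595, minus strand). Its level in C4-2 was 2.62 and 3.44 CPM with R1881 alone and 4.20 and 6.35 CPM with namoline. With TCE-5002 it was 3.94 and 3.96 CPM, and with both inhibitors 2.33 and 2.06 CPM. The groups with a single inhibitor lay above R1881 alone without overlap, and the group with both lay below it. No change against R1881 alone was called: the log2 fold change was 0.80 ± 0.256 with namoline (edgeR adjusted p = 0.0254, under 2-fold), 0.40 ± 0.260 with TCE-5002 and -0.47 ± 0.283 with both. The namoline value ran from 0.46 to 1.04 as single libraries were left out, with an adjusted p of 0.324 without C4-2 namoline replicate 2.

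When the group with both inhibitors was set against namoline alone, 5 of the 8 members were called, where 27.5% of all genes were. PCAT1 fell by 2.84 ± 0.355 on the log2 scale, DRAIC by 2.08 ± 0.234 and ARLNC1 by 1.27 ± 0.269. MALAT1 rose by 1.30 ± 0.183 and GAS5 by 1.59 ± 0.156, and the largest of the 5 edgeR adjusted p-values was 0.00101, for ARLNC1. The ARLNC1 call went to a log2 fold change of -0.93 without C4-2 namoline replicate 2. Against TCE-5002 alone, 2 members were called, where 26.1% of all genes were: PCAT1, lower by a log2 fold change of -2.33 ± 0.365, and MALAT1, higher by 1.23 ± 0.183. DRAIC was at -0.68 ± 0.254 in that comparison (edgeR adjusted p = 0.0347, under 2-fold). It lost the adjusted p under DESeq2 (0.0821), with no filter on low counts (edgeR, 0.0580) and with only the 4 libraries compared (edgeR, 0.0777). The DRAIC value ran from -0.90 to -0.49 as single libraries were left out.

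PCA3, the prostate-specific RNA measured in urine as a test for prostate cancer, lies within an intron of PRUNE2 on the opposite strand (GRCh38 chr9:76764436-76787569, plus strand). It was at 1.55 and 1.75 CPM in C4-2 with R1881 alone, 2.13 and 2.28 with namoline, 0.828 and 1.45 with TCE-5002 and 2.89 and 1.13 under both. The 2 libraries with both inhibitors differed from each other more than the other C4-2 pairs, and they enclosed the R1881 values. None of the comparisons among C4-2 groups called PCA3. Without C4-2 combination replicate 1 the log2 fold change for both against R1881 alone was -0.57, and with all libraries it was 0.28 ± 0.408. In 4 comparisons PCA3 changed sign and 2 became calls as single C4-2 libraries were left out, the calls being both against TCE-5002 (1.33 without C4-2 combination replicate 2, 1.26 without C4-2 TCE-5002 replicate 2) and namoline against TCE-5002 (1.39 without C4-2 TCE-5002 replicate 2).

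PRUNE2, whose span covers PCA3, was far more abundant. Per kb of exon, PCA3 stood at 0.432 to 1.82% of PRUNE2 in the C4-2 libraries. PRUNE2 was at 944 and 953 CPM in C4-2 with R1881 alone and at 593 and 540 with both inhibitors, a log2 fold change of -0.77 that passed the adjusted p without reaching 2-fold. The counting is not stated to use strand, so a fragment from unspliced PRUNE2 RNA over a PCA3 exon would be counted for PCA3.

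SCHLAP1, known from aggressive prostate cancer and as an antagonist of the SWI/SNF chromatin remodelling complex, was a rare transcript in C4-2 (GRCh38 chr2:180692104-180916939, plus strand). It was at 0.749 and 0.780 CPM with R1881 alone, 0.887 and 1.02 with namoline, 0.362 and 0.589 with TCE-5002 and 0.284 and 0.563 under both. Both groups given TCE-5002 lay below R1881 alone without overlap, yet no C4-2 change was called, and the log2 fold change with both inhibitors was -0.88 ± 0.527 (edgeR adjusted p = 0.178). In the C4-2 libraries it was counted from 5 to 17 fragments, and over all libraries from 5 to 52. Its neighbour UBE2E3, a ubiquitin-conjugating enzyme gene that begins 50309 bp beyond it on the same strand, stood at 28.2 and 26.8 CPM with R1881 alone and 6.87 and 5.13 with both, a fall of 2.22 on the log2 scale.

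PCGEM1, an androgen-responsive prostate RNA, and PCAT14, which marks prostate cancers, were below the filter in every fit. PCGEM1 gave 7 fragments over all 12 libraries and at most 2 in any of them (GRCh38 chr2:192749845-192776899). It was at 0 in 7 of the 8 C4-2 libraries. PCAT14 gave 13 fragments in all and at most 3 in a library (GRCh38 chr22:23536881-23547797). A count of 0 allows up to 3 counts, which is 0.136 to 0.195 CPM in these libraries, so levels below that were not detectable at this depth, and these limits cover counting error only.

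NEAT1 (GRCh38 chr11:65422774-65445540, plus strand), which builds paraspeckles, and MALAT1 (GRCh38 chr11:65497762-65506516, plus strand), of nuclear speckles, are neighbours 52222 bp apart on the same strand. NEAT1 was at 719 and 685 CPM in C4-2 with R1881 alone and at 450.1 and 460.0 CPM with namoline. It was at 454 and 684 CPM with TCE-5002 and at 712 and 524 CPM with both inhibitors. The namoline libraries were the closest pair and lay below R1881 alone, whereas the TCE-5002 pair and the pair with both spread widely. No change of NEAT1 among C4-2 groups reached 2-fold, and the namoline log2 fold change was -0.64 ± 0.174 (edgeR adjusted p = 0.0104). That adjusted p ended above 0.05 without C4-2 R1881 replicate 1 (0.0694), without C4-2 namoline replicate 1 (0.0514) and without C4-2 namoline replicate 2 (0.0547).

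Paraspeckle protein genes, a list of 15 that were all tested, held no call with namoline, TCE-5002 or both in C4-2. With both inhibitors 3 passed the adjusted p upward and 7 downward, the other 5 did not, and the median log2 fold change was -0.25 beside -0.03 over all genes. The 15 paraspeckle protein genes held 2 calls in the interaction, where 35.3% of all genes were called: HNRNPH3 above the sum of the single effects (1.41) and SFPQ below it (-1.22). HNRNPH3 binds RNA as a splicing regulator, and SFPQ is a core paraspeckle protein that binds NEAT1.

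MALAT1 was the most abundant member per kb in every C4-2 library. It was at 3692 and 3037 CPM with R1881 alone, 2818 and 2104 with namoline, 2131 and 3000 with TCE-5002, and 5572 and 6689 under both inhibitors. Both single-inhibitor groups lay below the R1881 libraries, and the 2 libraries with both stood above all 6 others. The single-inhibitor values did not pass the test. They were -0.47 ± 0.180 with namoline (edgeR adjusted p = 0.0579) and -0.39 ± 0.180 with TCE-5002 (edgeR adjusted p = 0.104). The namoline value was under 0.05 with RLE scaling (edgeR adjusted p = 0.0457) and DESeq2 (DESeq2 adjusted p = 0.0225). Against R1881 alone the log2 fold change with both inhibitors was 0.84 ± 0.181 (edgeR adjusted p = 0.00148), under 2-fold, and the interaction was 1.70 ± 0.256 (edgeR adjusted p = 6.22e-05). Of its exonic bases, 23.3% are shared with other annotated genes, mostly on the opposite strand, and fragments there are left uncounted by default, so its counts are a part of what it gave.

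Nuclear speckle genes, a list of 15 splicing and speckle proteins, held 1 call with both inhibitors in C4-2. SRRM1, a serine-arginine-rich splicing co-activator, rose by a log2 fold change of 1.48, from 91.8 and 95.1 CPM to 252 and 279. In all 5 passed the adjusted p upward and 4 downward, and the median was -0.11. In the interaction 2 of the 15 were called, against the same 35.3% of all genes, both below the sum of the single effects: SRSF2 (-1.61) and SRSF7 (-1.40), splicing factors of the SR family. With either inhibitor alone none of the 15 was called. FRMD8, a protein-coding neighbour of NEAT1, was not called in any comparison among the C4-2 groups and was at a log2 fold change of 0.92 with both inhibitors.

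GAS5 (GRCh38 chr1:173863900-173868882, minus strand) is known as a growth-arrest RNA that can bind the glucocorticoid receptor, and its spliced form is degraded when it is translated. It was at 431 and 367 CPM in C4-2 with R1881 alone and at 242 and 192 CPM with namoline. With TCE-5002 it was at 384 and 282 CPM, and with both inhibitors at 643 and 671 CPM. Namoline libraries were the lowest of the 8, those with both inhibitors the highest, and the TCE-5002 pair overlapped R1881 alone. The log2 fold change was -0.89 ± 0.154 with namoline (edgeR adjusted p = 4.56e-04), -0.26 ± 0.152 with TCE-5002 and 0.69 ± 0.152 with both (edgeR adjusted p = 0.00171), each under 2-fold. The single effects summed to -1.16, and the interaction was 1.85 ± 0.217 (edgeR adjusted p = 5.76e-06). The namoline value reached 2-fold without C4-2 namoline replicate 1 (-1.09) and without C4-2 R1881 replicate 2 (-1.01).

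Other snoRNA host genes, a list of 15 that were all tested, held 4 calls lower and none higher with namoline, where 6.88% of all genes were called lower. These 4 were EPB41L4A-AS1 (log2 fold change -1.51), SNHG5 (-1.19), ZFAS1 (-1.18) and SNHG8 (-1.04). With TCE-5002, 3 were lower, against 6.8% of all genes: EPB41L4A-AS1 (-1.65), SNHG5 (-1.12) and SNHG8 (-1.05). With both inhibitors the calls lay on the other side, with 4 higher, against 8.87% of all genes, and none lower, and the genes were SNHG17 (1.40), SNHG15 (1.34), SNHG7 (1.08) and SNHG6 (1.00). The 15 had a median log2 fold change of 0.17 with namoline, -0.01 with TCE-5002 and 0.40 under both. In the interaction 8 were above the sum of the single effects, against 16.7% of all genes, and none below, with a median of 1.11 beside -0.01 over all genes tested, and EPB41L4A-AS1 (3.15) and SNHG8 (2.47) were the highest. ZFAS1, printed above with its pyrimidine tract, stood at 115 and 96.0 CPM with R1881 alone, 52.5 and 41.9 with namoline, 86.3 and 58.5 with TCE-5002 and 134 and 125 under both, an order of groups like that of GAS5. EPB41L4A-AS1, which lacks such a tract at its RefSeq start, went from 38.6 and 39.1 CPM to 13.6 and 13.8 with namoline and 35.2 and 42.5 with both.

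**Figure D4:**
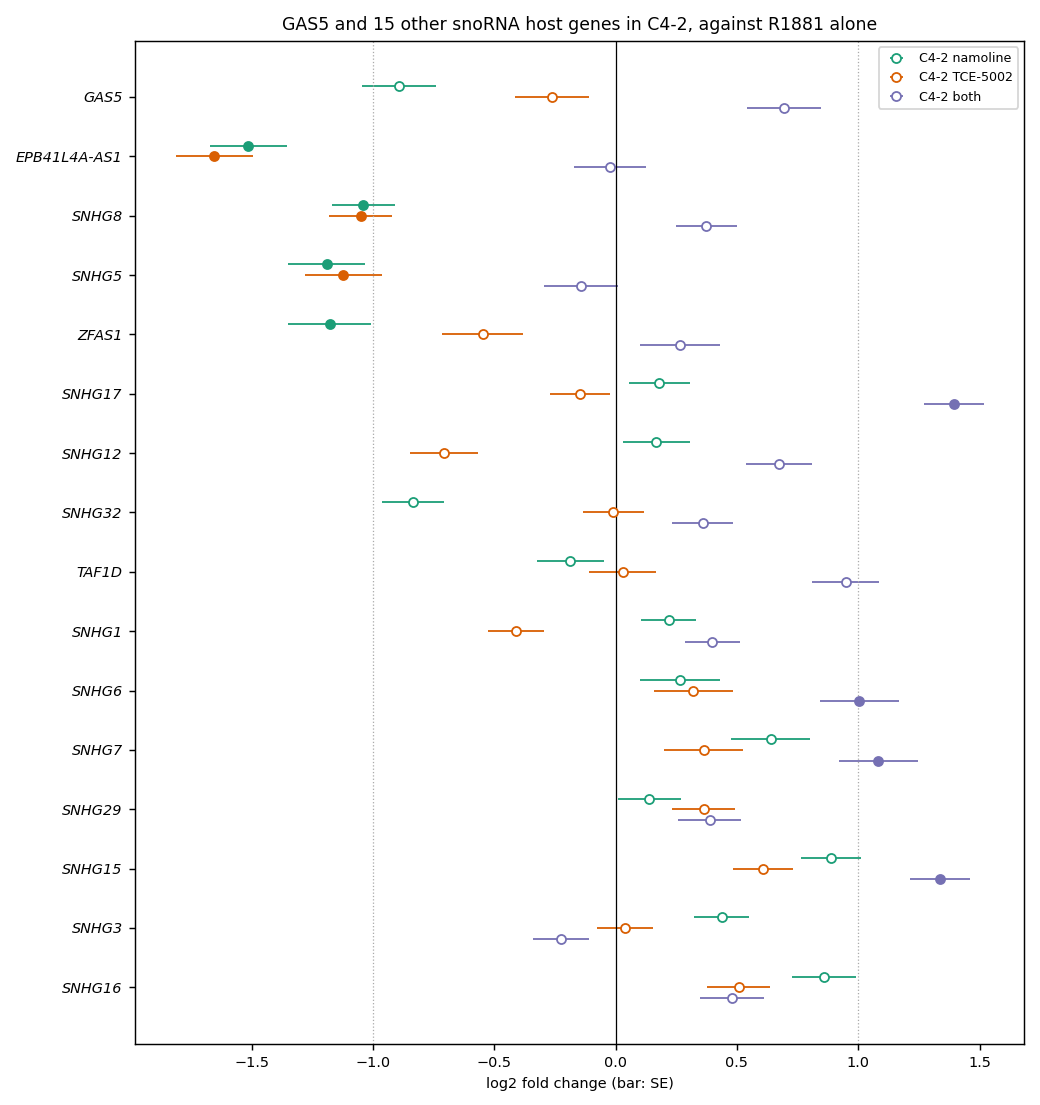
Log2 fold change against R1881 alone (points; bars, SE; filled, called) of GAS5 and the 15 other snoRNA host genes in C4-2 with namoline, TCE-5002 or both, ordered below GAS5 by interaction. The upper rows have single-inhibitor values at or below 0 and higher values with both; SNHG3 and SNHG16, at the foot, do not.

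Genes of nonsense-mediated decay, the surveillance that degrades spliced GAS5, were a list of 10. None was called with namoline, TCE-5002 or both in C4-2, and with both 4 passed the adjusted p upward and none downward, at a median of 0.29. In the interaction 3 of the 10 were called, a share below the 35.3% of all genes, and all 3 were above the sum, with the kinase gene SMG1 (1.49) and the endonuclease gene SMG6 (1.75) as the highest. ZBTB37, a zinc finger gene whose start overlaps the GAS5 gene on the opposite strand, was at -0.73 with namoline, -0.81 with TCE-5002 and -0.53 under both, each past the adjusted p without reaching 2-fold.

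A further 3 genes, of the androgen pathway, were followed beside the members. KLK3 was at 206 and 228 CPM in C4-2 with R1881 alone, 167 and 217 with namoline, 404 and 485 with TCE-5002, and 54.1 and 42.6 under both. It rose by a log2 fold change of 1.04 with TCE-5002 and fell by 2.19 with both. FOXA1, the pioneer factor of luminal prostate, fell by 2.11 on the log2 scale with both, from 375 and 402 CPM to 97.8 and 85.1. TMPRSS2, an androgen-induced protease gene, rose under namoline (1.03) and under TCE-5002 (1.76), and its value with both was -0.86. DRAIC and KLK3 thus lay on opposite sides with TCE-5002 alone and on the same side with both.

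A second list held 20 further RNAs named in prostate cancer or widely studied of which 12 passed the filter in C4-2. With namoline 2 were higher, where 5.17% of all genes were, POTEF-AS1 (1.99) and TMPO-AS1 (1.28), and none was lower. With TCE-5002 none of the 12 was called. With both inhibitors 5 fell, where 12.8% of all genes did, and none rose, at a median of -1.07. The lowest were PCAT18 (-2.25) and PART1 (-2.02), prostate-restricted transcripts. Across the C4-2 libraries PCAT18 ran from 0.0568 to 0.650 CPM, POTEF-AS1 from 0.0626 to 1.02 CPM and PART1 from 0.313 to 2.20 CPM. The lowest PCAT18 and POTEF-AS1 values lay below the detection limits given above. The log2 fold changes of PCAT18 and POTEF-AS1 therefore rest on few fragments in some libraries. Over the long non-coding RNA genes of GENCODE 29, 2984 were tested in C4-2. Of these 69 rose and 374 fell with namoline, 86 rose and 414 fell with TCE-5002, and 365 rose and 588 fell with both, or 14.8%, 16.8% and 31.9%. The median log2 fold change over them was -0.36, -0.33 and -0.27 in turn, and 0.47 in the interaction.

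Under R1881 alone, 6 of the 8 members tested differed between the lines, where 50.5% of all 19763 genes were called. Of these, 5 were lower in the libraries labelled LNCaP, against 24.3% of all genes. Over the 3507 long non-coding RNA genes in this fit, 59.1% were called, 1341 lower and 730 higher in the libraries labelled LNCaP. Their median log2 fold change was -0.60, so lower values were common in this class of genes. DRAIC was at 1.02 and 0.637 CPM, against 9.50 and 11.0 in C4-2, a log2 fold change of -3.64 ± 0.296 (edgeR adjusted p = 7.15e-11). NEAT1 was at 97.1 and 68.5 CPM, a log2 fold change of -3.11 ± 0.141. PCA3 was at 0.279 and 0.136 CPM from 6 and 3 fragments, a log2 fold change of -2.97 ± 0.604 that rests on these few fragments. MALAT1 was at 1042 and 832 CPM (-1.87 ± 0.136) and ARLNC1 at 0.930 and 0.910 (-1.73 ± 0.331). For each of the 5 the LNCaP and C4-2 libraries did not overlap. In these bulk libraries fewer cells that make an RNA and less of it per cell cannot be told apart.

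GAS5 alone of the 6 was higher in the libraries labelled LNCaP, at 925 and 869 CPM with R1881 alone, a log2 fold change of 1.14 ± 0.0992 (edgeR adjusted p = 2.59e-10). PCAT1 stood at 1.91 and 1.96 CPM there and did not pass the test, at -0.06 ± 0.313, and SCHLAP1 at 1.07 and 1.00 CPM gave 0.41 ± 0.442. All 6 calls held in the alternative fits and without each library in turn. The luminal and mesenchymal marker sums given above moved with the line in the same libraries. Of the 10 luminal markers 8 were called lower, and of the 8 mesenchymal markers tested 6 were called higher. KLK3, also on the luminal list, went the other way, at a log2 fold change of 0.77, and KLK2 was at -0.98. Both passed the adjusted p without reaching 2-fold. The part of the marker differences in the lower DRAIC, PCA3 and ARLNC1 was not tested.

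With both inhibitors in the libraries labelled LNCaP, 7 members passed the filter and 1 was called, SCHLAP1, where 18.7% of all 17565 genes were. SCHLAP1 was at 1.07 and 1.00 CPM with R1881 alone and at 3.15 and 1.98 CPM with both, a log2 fold change of 1.35 ± 0.376 (edgeR adjusted p = 0.00281). The 2 groups did not overlap, and the higher value came from the library whose header names namoline alone. Without that library the log2 fold change was 0.99 (edgeR adjusted p = 0.0813) and no member was called. GAS5 went from 925 and 869 CPM to 1179 and 1411, a log2 fold change of 0.59 ± 0.119 (edgeR adjusted p = 9.04e-05), under 2-fold with that library and 0.71 without it. MALAT1 went from 1042 and 832 CPM to 1008 and 1395, overlapping, at 0.42 ± 0.134 with the library (edgeR adjusted p = 0.00847) and 0.63 without it. The MALAT1 value also rested on other single libraries, at 0.16 without replicate 2 of the group with both inhibitors (edgeR adjusted p = 0.270) and 0.26 without replicate 2 of R1881 alone (edgeR adjusted p = 0.103). After correction for GC content it was 0.11 (edgeR adjusted p = 0.416), and under DESeq2 the adjusted p was 0.235.

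The remaining members gave no call in the libraries labelled LNCaP. PCAT1 was at 2.12 and 1.83 CPM with both inhibitors (0.08 ± 0.341), NEAT1 at 81.7 and 91.3 (0.12 ± 0.121), DRAIC at 0.303 and 0.812 (-0.47 ± 0.548) and ARLNC1 at 0.666 and 0.659 (-0.41 ± 0.498). Replicate 1, the library with the mismatched header, had the lower DRAIC value, and without it the log2 fold change was 0.02 for DRAIC, -0.03 for PCAT1, 0.20 for NEAT1 and -0.42 for ARLNC1, none of them called. PCA3 was at 4 and 1 fragments and was not tested. Among the 15 other snoRNA host genes 3 rose, against 7.44% of all genes, and none fell, with SNHG6 (1.71) and TAF1D (1.53) the highest, at a median of 0.53. Without the library with the mismatched header 3 rose and none fell, SNHG6 was at 1.94 and TAF1D at 1.63, and the median was 0.62. UBE2E3, beside SCHLAP1, was at 0.00 (0.10 without that library), while FRMD8, beside NEAT1, fell (-1.26, and -1.36 without it).

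The effect of both inhibitors was compared between the lines by the difference of the log2 fold changes, C4-2 minus the libraries labelled LNCaP. Of the 8 members, 3 were called, where 25.3% of all genes were, and all 3 were lower in C4-2, against 13.9% of all genes. Over the 3507 long non-coding RNA genes in this fit, 598 were called lower in C4-2 and 315 higher, at a median difference of -0.30. For PCAT1 the difference was -1.81 ± 0.508 (edgeR adjusted p = 0.00498), for SCHLAP1 -2.28 ± 0.658 (edgeR adjusted p = 0.00604) and for DRAIC -1.89 ± 0.565 (edgeR adjusted p = 0.00792). Without the library with the mismatched header the differences were -1.72, -1.94 and -2.39 in the same order (edgeR adjusted p = 0.0114, 0.0261 and 5.58e-04). The DRAIC difference was lost without replicate 2 of the libraries labelled LNCaP with both inhibitors (-0.98, edgeR adjusted p = 0.371), and DRAIC there was counted from 5 to 22 fragments per library. For GAS5 the difference was 0.05 ± 0.138, or -0.09 without that library, and was not called. After correction for GC content the GAS5 difference was 0.32 (edgeR adjusted p = 0.0318), under 2-fold. For NEAT1 the difference was -0.38 ± 0.187 (edgeR adjusted p = 0.0994), or -0.48 without the library with the mismatched header. It ran from -0.63 to -0.04 as single libraries were left out. Without the filter on low counts the NEAT1 value was -0.38 (edgeR adjusted p = 0.00863), under 2-fold. For MALAT1 it was 0.37 ± 0.187 (edgeR adjusted p = 0.109), or 0.13 without that library. The MALAT1 difference was 0.68 after correction for GC content (edgeR adjusted p = 9.71e-04), 0.63 without replicate 2 of the libraries labelled LNCaP with R1881 alone (edgeR adjusted p = 0.00630) and 0.62 without replicate 2 of those with both (edgeR adjusted p = 0.00112), under 2-fold in each.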

How the data were processed

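RNA was captured by its poly(A) tail, sequenced in pairs and, per the submitters' methods, trimmed with Trim Galore, aligned with STAR to GRCh38 and counted with featureCounts. The deposited values are raw counts of fragments per gene from the authors, made per the file headers with featureCounts 1.5.0-p1 and Ensembl release 83 and with no strand option. Counts were recovered for 60675 genes in 12 libraries, and symbols, GC content and transcript classes came from GENCODE 29.

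Genes were filtered with filterByExpr, scaled by TMM and tested with the quasi-likelihood F test of edgeR 4.0.16 (R 4.3.3, limma 3.58.1), with p-values adjusted by Benjamini-Hochberg over every gene in the fit and SE taken as the log2 fold change over the root of F. Fits used the 8 C4-2 libraries, the 4 libraries labelled LNCaP, or the 8 libraries of the line comparison. Levels are CPM with TMM factors over all 12 libraries, and per kb they are divided by exonic length. The luminal and mesenchymal marker sums are the exception: they are CPM of the total counts, without TMM factors. The tests were first checked on simulated counts. Alternatives were RLE scaling, no filter, DESeq2 1.42.0, a replicate block, GC-corrected offsets, both of these, only the 4 libraries compared, and leaving out each library.

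The members and lists were chosen with earlier results of these data known. All 10 members are named whatever their values, as are neighbouring genes and 3 androgen pathway genes, and 1 neighbour is not reported here. Of other lists at most the 2 highest and the 2 lowest called genes are named, and further host genes, and the sequences printed, were chosen after values were seen. With 2 libraries per group, each p-value sets a difference against a spread estimated over all groups of its fit and with help from other genes. That spread is the one between these samples.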

Additional observations from a re-analysis of the deposited data

Results flagged for a closer look

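The effect of both inhibitors on 3 members differed between C4-2 and the libraries labelled LNCaP by a test of the difference itself (edgeR quasi-likelihood, adjusted p under 0.05). The difference of log2 fold changes, C4-2 minus the libraries labelled LNCaP, was -1.81 for PCAT1, where C4-2 fell and the other libraries were at 0.08. It was -2.28 for SCHLAP1, where the libraries labelled LNCaP rose (1.35, or 0.99 and no longer called without the library with the mismatched header) and C4-2 was at -0.88. It was -1.89 for DRAIC, where C4-2 fell and the other libraries were at -0.47. The DRAIC difference was -0.98 without replicate 2 of the libraries labelled LNCaP with both inhibitors. The marker sums differed between the lines with R1881 alone and with both inhibitors. The luminal sum was lower with both inhibitors in each line. The part of these marker differences in the 3 results was not tested.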

How the results depend on the processing

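Every count of called genes, and of called members, stayed within 1.5 times its value under RLE scaling, no filter, DESeq2, the GC correction, the replicate block, both together and, for the 6 pairwise C4-2 comparisons, only the 4 libraries compared. Same-numbered replicates shared little of their deviations between groups (correlations -0.094 to 0.103). In the 4 C4-2 groups replicate 1 deviated with GC content in the same direction (Spearman -0.494 to -0.104). Whether same-numbered samples were handled together was not tested. The replicate block moved the count for both inhibitors in C4-2 from 3834 to 3871 and changed no member's call. Genes with an adjusted p under 0.05 alone went from 3215 to 4347 for namoline against TCE-5002 in C4-2. For both inhibitors in the libraries labelled LNCaP they went from 9877 to 9161. With single libraries left out, where the lone sample of a group is assumed to vary like the other groups, the members called ran from 0 to 3 with namoline, 1 to 2 for namoline against TCE-5002 and 0 to 1 in the libraries labelled LNCaP, and all genes called for namoline against TCE-5002 from 494 to 1211 (876 with all), the lowest without C4-2 namoline replicate 2. The GC correction turned PCAT1 in the libraries labelled LNCaP to -0.0629 (-0.0630 with the block) and the ARLNC1 difference between the lines to 0.16 (0.16 with the block), and neither was called in any fit. SCHLAP1, both against namoline, was called at -1.16 with only the 4 libraries compared.

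The values that changed sign as single libraries were left out were none of them called with all libraries. For both inhibitors against R1881 in C4-2 PCA3 ran from -0.57 to 0.81 and NEAT1 from -0.45 to 0.0101. For both against namoline PCA3 ran from -0.98 to 0.42. For both against TCE-5002 PCA3 ran from -0.0435 to 1.33, SCHLAP1 from -0.74 to 0.21 and NEAT1 from -0.16 to 0.41. For namoline against TCE-5002 MALAT1 ran from -0.33 to 0.19, and for the interaction PCA3 from -0.46 to 0.94. In the libraries labelled LNCaP PCAT1 ran from -0.0262 to 0.19, DRAIC from -1.38 to 0.0234 and NEAT1 from -0.11 to 0.39. Between the lines under R1881 alone PCAT1 ran from -0.17 to 0.0697, and for the difference of the effects PCA3 ran from -0.13 to 2.06, ARLNC1 from -0.30 to 0.0663 and GAS5 from -0.0912 to 0.20. The causes were not tested. At this depth PCGEM1 and PCAT14 could not be tested, and PCA3, SCHLAP1, PCAT1 and DRAIC rest on few fragments in some libraries.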
